A study of Mus musculus with 12 samples.

Results

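The combined treatment was followed in 6 of the 12 arrays of the series, chosen by their titles: 3 arrays from mice that received clodronate liposomes (Lip-C) and lost both olfactory bulbs (OBX), and 3 from mice that received empty liposomes (Lip-O) and a sham operation. The other 6 arrays, 3 of Lip-O with OBX and 3 of Lip-C with a sham operation, gave the single treatments. Every mouse was a wild-type C57BL/6J male of 6 weeks, anaesthetised for intranasal dosing with 50 µl of liposomes daily over 3 days and given 200 µl by tail vein on the first and last of these days, with the operation on the day between. Microdissected olfactory epithelium was taken 48 h after the operation, and its biotin-labelled cRNA was hybridised to 1-colour Affymetrix arrays. The Lip-O sham baseline therefore carries liposomes, anaesthesia and surgery, and is not untreated tissue. The titles call the arrays of a group biological replicates, and no label says whether an array holds 1 mouse or a pool. The p-values measure the spread between these samples.

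Olfactory sensory neurons lie in the nasal epithelium and send their axons to the olfactory bulb, so bulb removal cuts these axons and the neurons die together within days. Phagocytes clear the debris, and basal progenitors divide and form neuronal precursors that replace the lost neurons. Clodronate is a bisphosphonate that kills phagocytes once they take up the liposomes carrying it, and drugs of this class also act on osteoclasts, the bone-resorbing cells of the same lineage. In the series the treatments address how macrophages bear on the death, protection and renewal of the neurons.

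The joint change is the log2 difference between the Lip-C OBX and the Lip-O sham mean, where log2 was taken of signal + 16; a value of 1 is a doubling. The sum of the single changes is OBX alone (Lip-O OBX minus Lip-O sham) plus Lip-C alone (Lip-C sham minus Lip-O sham), and the departure is the joint change minus that sum, which is the interaction of the 2 by 2 design. On this scale the sum stands for fold changes that multiply. With 3 arrays a group the sampling errors of joint change and departure are uncorrelated, but joint change and single changes share the baseline arrays, so their values are set side by side and not correlated. A gene was called when the adjusted p of limma's moderated test was under 0.05.

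Together the treatments raised 1095 of 13628 genes and lowered 702, so 13.2% were called, 8.03% higher and 5.15% lower. Rises had a median of 0.54 and falls of -0.52; 64 genes rose and 58 fell by at least 1, and 9 rose and 1 fell by at least 2. Groups did not overlap for 4830 genes (35.4%), and for 1090 of the risen and 701 of the fallen ones. Over the risen genes the median change was 0.44 for OBX alone, 0.19 for Lip-C alone and 0.64 for the sum, which left a median departure of -0.11. The fallen genes gave -0.56, -0.04, -0.60 and 0.11 in that order, and all genes 0.05, 0.00 and 0.04 beside a median joint change of 0.04. In both directions the joint change was thus, at the median, nearer to 0 than the sum, and these medians kept their sign in all 23 settings (-0.17 to -0.05 and 0.04 to 0.15).

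No single gene's departure was called by limma (lowest adjusted p 0.0747). At an unadjusted p under 0.05 there were 2405 departures (17.6%), 1152 above the sum (8.45%) and 1253 below it (9.19%). The count of called departures was 155 without Lip-O OBX replicate 2, 3 without Lip-C OBX replicate 3, 85 with only genes above the 60th percentile, 66 with a trended prior variance, 1 with no filter on low values and 0 in the other settings. The median 95% interval of a departure reached 0.389 to either side, so many smaller departures could not be told from 0 even without adjustment. A call after adjustment needed a larger departure still. Departures below are therefore given with their intervals and unadjusted counts. Among the companion contrasts, OBX alone called 2676 genes (19.6%, with 10.7% higher and 8.89% lower) and Lip-C alone 286 (2.1%, with 1.28% and 0.814%). Lip-C added to OBX called 47 (0.345%, with 0.125% and 0.22%), and OBX added to Lip-C 2615 (19.2%, with 10.3% and 8.86%).

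Single arrays moved the number of joint calls strongly. It was 819, 981 and 665 without Lip-O sham replicate 1, 2 and 3, and 451, 516 and 2135 without Lip-C OBX replicate 1, 2 and 3. Lip-C OBX replicate 3 lay nearest to baseline of its group for several lists below. Without one of the other 6 arrays the count stayed within 1.5 times of 1797. Of the 116 genes with a call that are named by rule, 48 kept it under every setting and 64 lost it when some array was left out. Array medians were 117.5 to 134.2, and arrays correlated over genes, which are not independent replicates, at r = 0.970 to 0.987 within groups and 0.957 to 0.978 between Lip-O sham and Lip-C OBX. With array medians set equal, calls were 583 higher and 1010 lower, and the share higher was 36.6% against 60.9%. The median of all genes was 0.04, and -0.04 with medians set equal. In whole tissue, fewer cells of a type and less RNA per cell cannot be told apart.

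The tissue carried its defining transcripts in all 12 arrays. Omp, the marker of mature olfactory neurons, and Cyp2g1, a supporting cell and gland enzyme, were among the brightest genes, with Cyp2g1 at 15603, 15644 and 17236 in the Lip-O sham and 16205, 17388 and 16145 in the Lip-C OBX arrays. Krt5, a keratin of horizontal basal cells, read 690.0, 816 and 705 in the former and 1118, 1280.0 and 793 in the latter. Cyp2g1 overlapped between these groups and did not pass the test (0.04 ± 0.08, adjusted p = 0.781), nor did Krt5 (0.50 ± 0.16, adjusted p = 0.0652; 0.0435 with a trended prior variance).

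**Figure D1:**
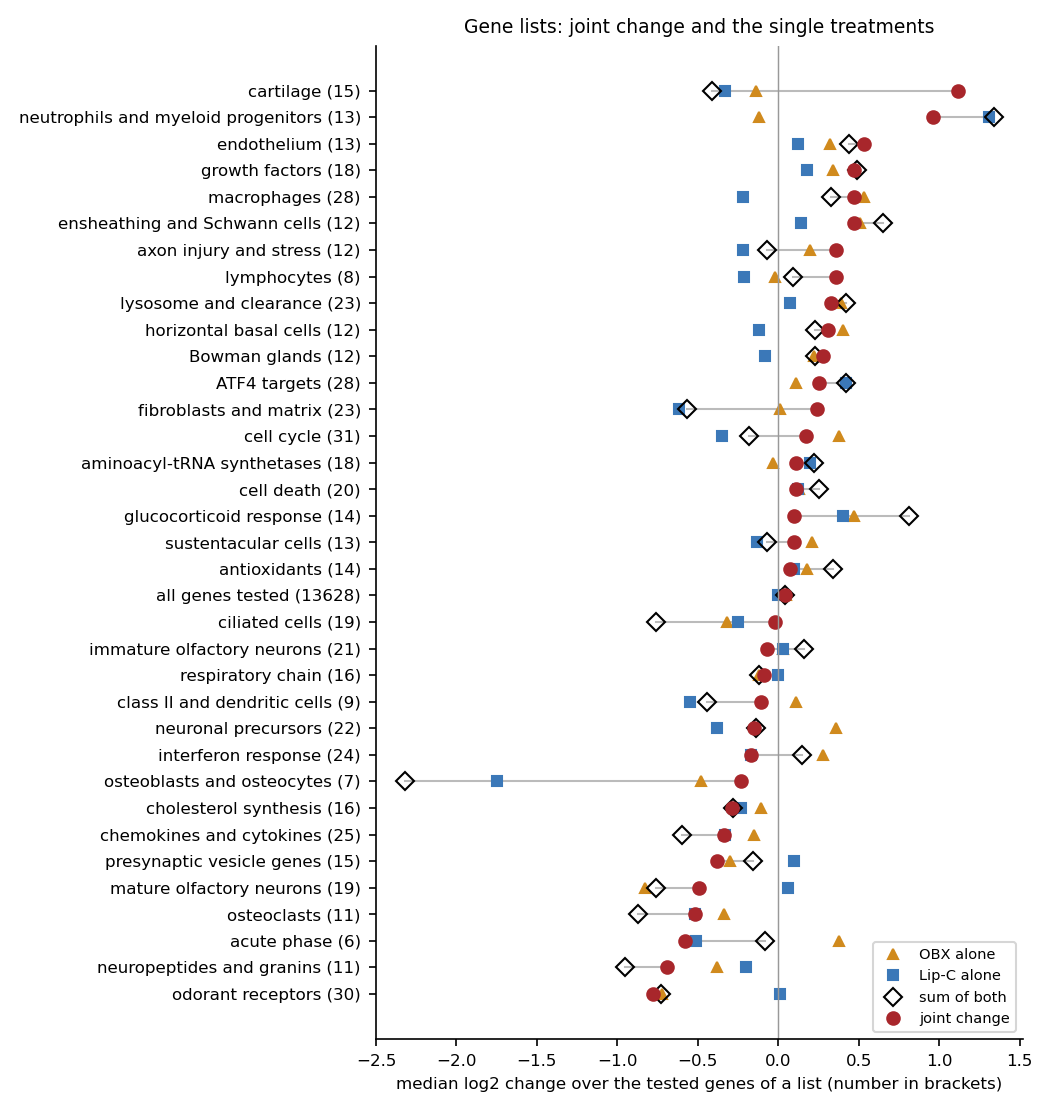
Median log2 change over the tested genes of each list (x axis), for the joint change (red circles), OBX alone (orange triangles), Lip-C alone (blue squares) and the sum of both (open diamonds); the number of genes is in brackets, lists of fewer than 5 are left out, and a grey line joins sum and joint change. The cartilage list has the highest joint median (1.12) beside a sum of -0.41, odorant receptors have the lowest (-0.78), and osteoblast and osteocyte genes have the lowest sum (-2.32) beside a joint median of -0.23.

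**Figure D2:**
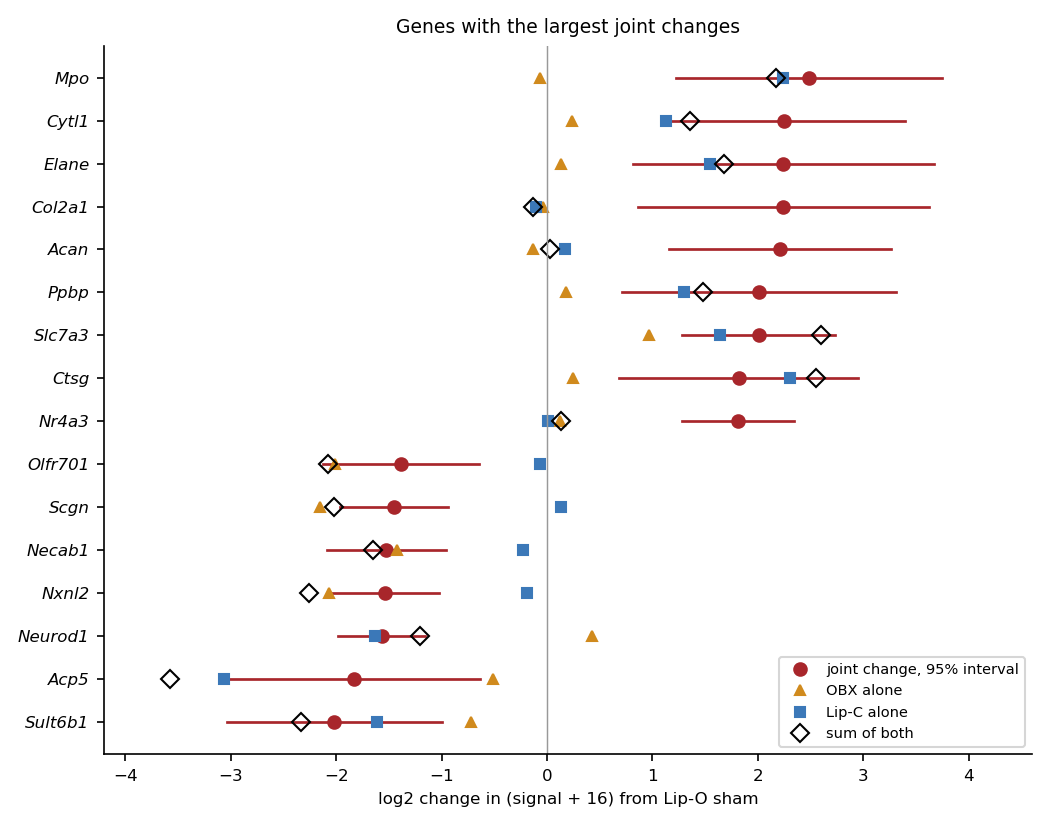
Joint change with its 95% interval (red), OBX alone (orange triangles), Lip-C alone (blue squares) and their sum (open diamonds) on the log2 scale for those of the 12 largest rises and 12 largest falls whose 4 group means all lay above the arrays' 40th percentile. For Acan, Col2a1 and Nr4a3 the sum lies near 0 and outside the interval of the joint change; for Mpo, Necab1 and Sult6b1 it lies inside.

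Promoter sequences are shown for the genes of 2 sets that the results turn on, as the 250 bases before the start in RefSeq (GRCm38.p6), 5′ to 3′ on the gene's strand. The first set is Chac1 and Fgf21, which rose with Lip-C in sham and in OBX mice. ATF4, the transcription factor of the amino acid and integrated stress response, binds with C/EBP partners at the element TGATGCAA. The element, searched on both strands, stands in 260 of 32851 promoters (0.791%) and in 6 of 28 promoters of the list of ATF4 targets (21.4%): those of Chac1, Fgf21, Atf3, Nupr1, Vldlr and Slc7a11. A promoter was found for 24 of the 28 genes, and targets were listed from what is known of ATF4, so this share is a description. Among the 11 targets with a joint call, all with a promoter, Chac1, Fgf21, Atf3 and Nupr1 held the element, while Asns, Phgdh and Slc7a1 did not. Sequences for this set were taken only from called targets that held it. Capitals mark the element, read on the opposite strand, with its first base 193 bases before the start of Chac1 and 139 before that of Fgf21.

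Chac1, chr2:119350992-119351241, plus strand: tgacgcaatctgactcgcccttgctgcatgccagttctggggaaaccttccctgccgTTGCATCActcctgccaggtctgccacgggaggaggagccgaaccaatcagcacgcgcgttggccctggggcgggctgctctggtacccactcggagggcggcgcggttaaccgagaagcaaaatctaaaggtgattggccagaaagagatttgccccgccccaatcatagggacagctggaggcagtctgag
Fgf21, chr7:45615491-45615740, minus strand: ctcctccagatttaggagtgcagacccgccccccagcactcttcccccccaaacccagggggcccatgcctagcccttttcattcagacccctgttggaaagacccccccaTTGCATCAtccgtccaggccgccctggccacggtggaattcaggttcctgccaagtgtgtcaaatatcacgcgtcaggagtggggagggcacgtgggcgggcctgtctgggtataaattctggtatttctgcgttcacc

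The second set is the Nr4a family of orphan nuclear receptors, immediate early genes whose 3 members were highest in the Lip-C OBX arrays. Capitals mark TGACG on either strand, the core of the cAMP response element, chosen after the values were seen and overlapping no match of TGATGCAA. Each of the 3 promoters holds it 4 times, while 5836 of 32851 promoters (17.8%) hold it at least once and 45 (0.137%) at least 4 times. The cutoff of 4 was taken from these 3 promoters, so the last share is a description and no measure of enrichment. The full element TGACGTCA, present in 1.55% of promoters, is in none of the 3 windows.

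Nr4a1, chr15:101266596-101266845, plus strand: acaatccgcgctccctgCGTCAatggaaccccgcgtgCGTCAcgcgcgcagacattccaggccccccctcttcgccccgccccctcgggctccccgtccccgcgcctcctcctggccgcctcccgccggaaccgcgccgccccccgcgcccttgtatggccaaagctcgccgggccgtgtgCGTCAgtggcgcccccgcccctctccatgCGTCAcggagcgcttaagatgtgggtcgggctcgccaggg
Nr4a2, chr2:57124004-57124253, minus strand: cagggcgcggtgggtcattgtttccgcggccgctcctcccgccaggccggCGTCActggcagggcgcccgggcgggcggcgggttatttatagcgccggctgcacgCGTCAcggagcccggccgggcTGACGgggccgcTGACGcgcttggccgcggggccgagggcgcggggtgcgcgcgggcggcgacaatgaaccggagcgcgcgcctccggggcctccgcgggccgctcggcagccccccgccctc
Nr4a3, chr4:48045055-48045304, plus strand: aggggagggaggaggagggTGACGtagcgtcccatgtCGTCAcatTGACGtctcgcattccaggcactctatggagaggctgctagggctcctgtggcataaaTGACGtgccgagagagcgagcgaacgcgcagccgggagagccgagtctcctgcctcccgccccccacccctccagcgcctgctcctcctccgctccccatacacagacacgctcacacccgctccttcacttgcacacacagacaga

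For the other motifs searched on both strands, the E-box CAGNTG, bound by proneural factors, was in 13 of 23 promoters of 17 precursor genes (56.5%) and in 44.8% of all promoters. The Ebf site CCCNNGGGA was in 5 of 23 promoters of 16 mature neuron genes (21.7%) and in 5.6% of all. A match is a stretch of letters and says nothing of binding here.

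All 3 Nr4a receptors rose after both treatments and lay above their sums. Nr4a3 read 129, 63.4 and 83.3 in the Lip-O sham arrays and 443, 259.5 and 379 in the Lip-C OBX arrays, against 84.3, 93.8 and 90.6 with Lip-C alone and 78.2, 94.5 and 126 with OBX alone. All 3 Lip-C OBX arrays stood above the other 9, which overlapped each other. The joint change was 1.82 ± 0.24 (SE, adjusted p = 0.00456), the sum 0.13 and the departure 1.68 (95% interval 0.93 to 2.43), or 1.74 when single changes were added on the linear scale. Nr4a2, the dopaminergic lineage factor, gave 120.2, 123 and 149 at baseline and 422, 256 and 469 with both treatments, a joint change of 1.40 ± 0.22 (adjusted p = 0.0071) and a departure of 1.26 (95% interval 0.58 to 1.94). Nr4a1 gave 472, 491 and 459 at baseline, 352, 353 and 391 with Lip-C, 391, 493 and 446 with OBX and 771, 660.0 and 732 with both. Its joint change of 0.59 ± 0.10 (adjusted p = 0.00771) stood beside a sum of -0.46, and its departure was 1.05 (95% interval 0.75 to 1.35), adjusted p = 0.0747. On averaging each gene's probe sets, Nr4a2 had a joint change of 0.67 and a departure of 0.37 (unadjusted p = 0.0401). For these 3 receptors the joint groups did not overlap, nor did they for 1090 of the 1095 risen genes and 35.4% of all genes. Every setting kept the joint call of the 3. In the list of axon injury and stress genes, 4 of 12 tested rose and none fell (8.03% and 5.15% of all genes): the 3 receptors and Hspb1, a small heat shock protein, while Jun, the injury factor that heads the list, read 2240.1 ± 174 (SD, n = 3) at baseline and 2285 ± 429 with both (adjusted p = 0.944). The call for Hspb1 was lost without replicates 1, 2 or 3 of Lip-O sham or replicates 1, 2 or 3 of Lip-C OBX (adjusted p = 0.0573 to 0.098).

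**Figure D3:**
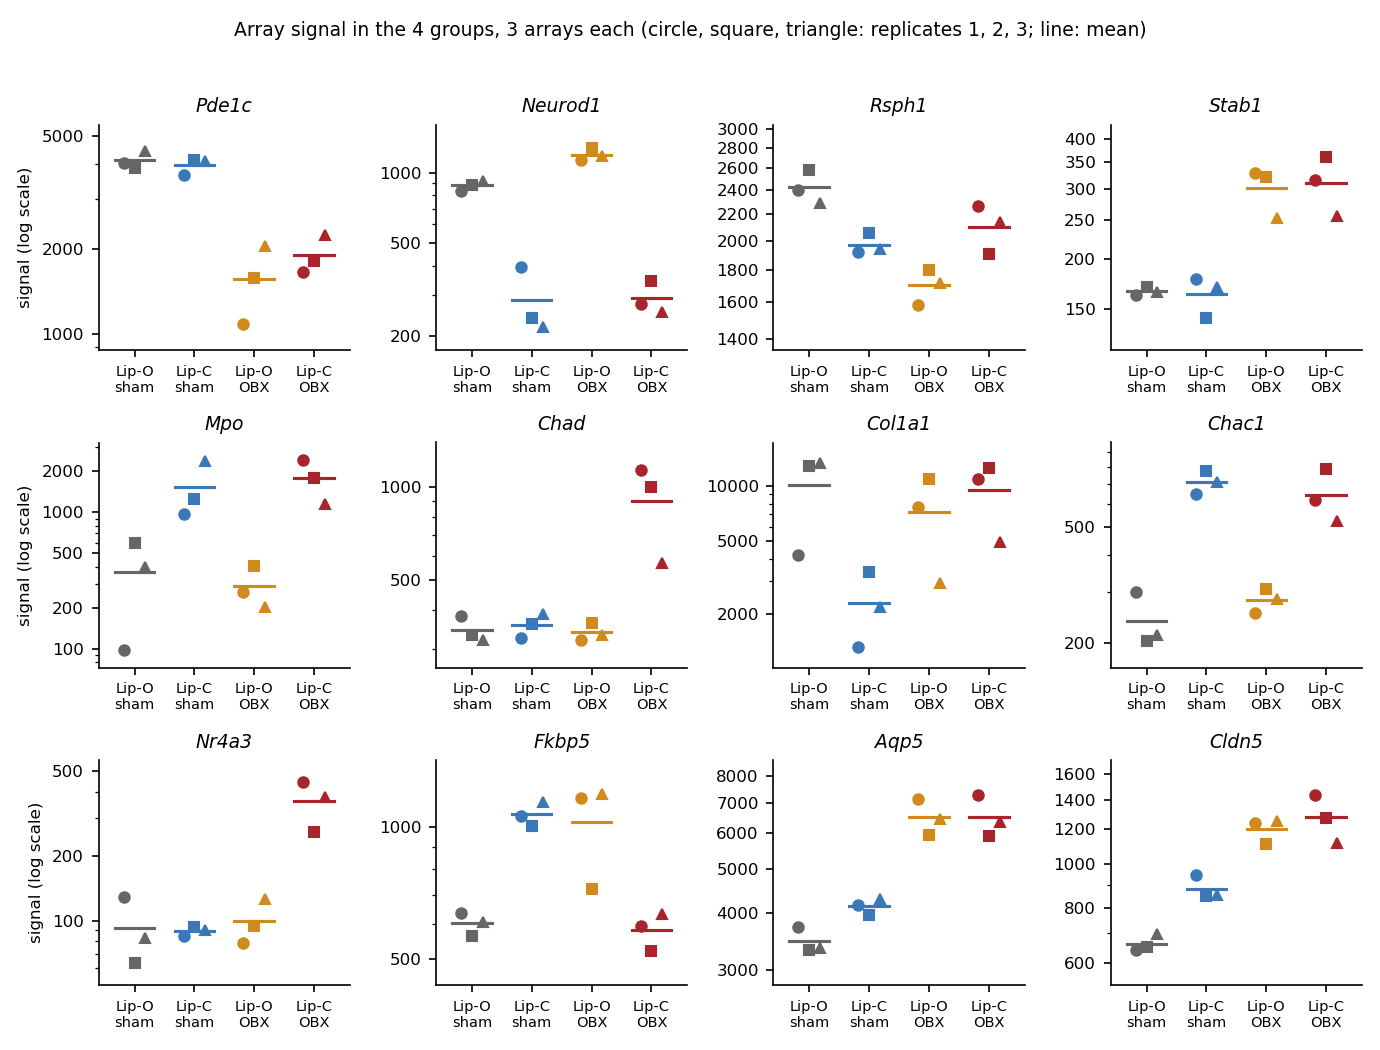
Signal (log axis) of 12 genes in the 3 arrays of each group: circles, squares and triangles are replicates 1, 2 and 3, and lines are means. Nr4a3 and Chad are highest in the Lip-C OBX arrays, Neurod1 is low and Chac1 high in both Lip-C groups, Pde1c is low and Stab1, Aqp5 and Cldn5 are high in both OBX groups, and Fkbp5 is above baseline in each single treatment but not in both together.

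Genes of mature olfactory neurons were lower after both treatments, and 15 of 19 had fallen after OBX alone (8.89% of all genes). Of 19 tested of 23 listed, 9 fell and 1 rose, where 5.15% and 8.03% of all genes did; 4 had no usable probe set. The list's median joint change was -0.49, and the other medians were -0.83 for OBX alone, 0.06 for Lip-C alone, -0.76 for their sum and 0.20 for the departure. Relative to the baseline mean, the list's median over its genes was -0.57, -0.56 and -0.30 in the Lip-C OBX arrays and -1.02, -0.89 and -0.53 in the Lip-O OBX arrays, with replicate 3 nearest to 0 in each. The count of falls with 1 array left out ran from 3 to 12, moving by over 1.5 times without replicate 3 (5) of Lip-O sham or replicates 1 (3) or 2 (3) of Lip-C OBX. The 1 rise, Reep6, was lost without Lip-O sham replicate 1 or 3 and without each of the 3 Lip-C OBX arrays.

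Pde1c, the calmodulin-dependent phosphodiesterase of olfactory cilia, read 4001, 3869 and 4436 at baseline and 1657, 1806 and 2229 with both treatments, and 1079.8, 1577 and 2041 with OBX alone. Both OBX groups lay below all sham arrays and overlapped each other. Its joint change of -1.11 ± 0.19 (adjusted p = 0.00945) stood beside a sum of -1.48, and the departure was 0.37 (95% interval -0.24 to 0.98). Gnb1, a G protein beta subunit of the odorant signal, went from 8850.0 ± 538 to 6373 ± 153 (SD, n = 3), a change of -0.47 ± 0.09 (adjusted p = 0.0128). Both genes kept their call in every setting. Omp, the olfactory marker protein, read 16165, 16197 and 18213 at baseline, 11679, 11606 and 13706 with both, 6769, 7543 and 11517 with OBX alone and 14449, 16243 and 16024 with Lip-C alone. The Lip-C OBX arrays lay below all baseline arrays, and all 3 Lip-O OBX arrays lay below all Lip-C OBX arrays. Adding Lip-C to OBX changed Omp by 0.55 (adjusted p = 0.209). Omp did not pass the joint test (-0.45 ± 0.17, adjusted p = 0.099; 0.0186 without Lip-O OBX replicate 3), and its departure was 0.67 (95% interval 0.14 to 1.19), unadjusted p = 0.0181. Nxnl2, a thioredoxin-like protein with a trophic role in sensory neurons, fell from 2173, 1903 and 1825 to 666, 504 and 867 (-1.54 ± 0.23, adjusted p = 0.0066). Scgn, the calcium sensor secretagogin, fell from 1279, 1169 and 994 to 326, 336 and 617 (-1.45 ± 0.23, adjusted p = 0.00756), beside -2.16 for OBX alone. Necab1, a neuronal calcium-binding protein, fell from 379, 292 and 508 to 97.5, 117 and 161 (-1.52 ± 0.26, adjusted p = 0.00833). These 3 genes were drawn from calls without overlap between the Lip-C OBX and baseline arrays, and no setting ended their calls. After averaging over probe sets the change of Nxnl2 was -0.85.

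Odorant receptor genes are each used by a small share of the neurons. Of 30 tested of 38 with a probe set, 12 fell and none rose (5.15% and 8.03% of all genes), with a median of -0.78 beside -0.72 for OBX alone, 0.01 for Lip-C alone, -0.73 for their sum and 0.34 for the departure. Most receptors are dim on the array, with a list median signal of 251, 178 and 295 at baseline and 102, 106 and 109 with both treatments, so changes are understated. With 1 array left out the count of falls ran from 5 to 14, moving by over 1.5 times without replicates 1 (6) or 3 (5) of Lip-O sham or replicates 1 (6) or 2 (6) of Lip-C OBX. At an unadjusted p under 0.05, 8 receptors lay above and 3 below the sum (8.45% and 9.19% of all genes), so the share below was near that of all genes. Omitting single arrays left 5 to 9 above, the fewest without replicate 3 of Lip-O sham. Below lay 1 to 6, with 1 on omitting replicate 3 of Lip-O sham or Lip-O OBX, replicate 2 or 3 of Lip-C sham or replicate 1 of Lip-C OBX, and 6 on omitting replicate 3 of Lip-C OBX. Olfr17 read 564, 512 and 489 at baseline, 121, 155 and 136 with OBX alone and 293, 163 and 296 with both. The joint change was -1.05 ± 0.19 (adjusted p = 0.00974) and its departure 0.75 (95% interval 0.17 to 1.33). Olfr976 read 293, 321 and 242 at baseline, 367, 359 and 366 with Lip-C alone, 129, 141 and 189.9 with OBX alone and 96.1, 156 and 129 with both. The joint change was -1.09 ± 0.17 (adjusted p = 0.00727) and its departure -0.59 (95% interval -1.12 to -0.05). The departure of Olfr976 had p under 0.05 in 15 of 22 fits. Both receptors were below baseline in all 3 arrays with both treatments, as were 701 of the 702 fallen genes, and their joint calls held in all settings.

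Presynaptic vesicle genes, which serve transmitter release at axon ends, fell in 4 of 15 tested and rose in none (5.15% and 8.03% of all genes), with a median of -0.38 beside -0.30 for OBX alone, 0.10 for Lip-C alone, -0.16 for their sum and -0.10 for the departure. The count with 1 array left out ran from 1 to 7, moving by over 1.5 times without replicates 1 (2), 2 (2) or 3 (1) of Lip-O sham or replicates 1 (1), 2 (1) or 3 (7) of Lip-C OBX. Sv2b, a synaptic vesicle glycoprotein, read 1191, 1112 and 1114 at baseline and 506, 499 and 642 with both, without overlap (-1.04 ± 0.15, adjusted p = 0.00626), and the sum was -0.96. Vamp2, a core fusion protein, gave a departure of -0.52 (95% interval -0.88 to -0.17) and did not pass the joint test (-0.21 ± 0.11, adjusted p = 0.236). When probe sets were averaged per gene Vamp2 did pass it (-0.42, adjusted p = 0.0124), and its departure was -0.14 (unadjusted p = 0.253).

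Most genes of motile cilia lay above the sum of the single changes. Of 19 tested of 22 listed, 5 fell and 1 rose (5.15% and 8.03% of all genes), with a median joint change of -0.02 beside -0.32 for OBX alone, -0.25 for Lip-C alone, -0.76 for their sum and 0.45 for the departure. At an unadjusted p under 0.05, 14 of the 19 lay above the sum and none below (8.45% and 9.19% of all genes), and 8 to 14 did with 1 array left out; the fewest were without Lip-C sham replicate 3. Rsph1, a radial spoke protein of the axoneme, read 2405, 2579 and 2295 at baseline, 1919.7, 2054 and 1942 with Lip-C, 1586, 1798 and 1717 with OBX and 2266, 1905 and 2139 with both. Each single treatment lay below all baseline arrays, and 2 of the 3 Lip-C OBX arrays stood above every array of the single treatments. The departure was 0.60 (95% interval 0.33 to 0.87), adjusted p = 0.08, and the joint change of -0.21 ± 0.09 did not pass the test (adjusted p = 0.136). Dnah7a, an axonemal dynein heavy chain outside the list, had a departure of 0.68 (95% interval 0.45 to 0.92): it read 332, 339 and 359.9 at baseline, 197, 181 and 165 with OBX and 271, 279.9 and 279.9 with both. Rsph9, another spoke protein, fell from 3248, 2947 and 2779 to 2036, 2012 and 2272 (-0.50 ± 0.09, adjusted p = 0.0104) under every setting. The list's count of falls with 1 array left out ran from 1 to 5, moving by over 1.5 times without replicates 1 (3) or 3 (2) of Lip-O sham or replicates 1 (1) or 2 (1) of Lip-C OBX. Foxj1, the master factor of motile cilia, read 1191 ± 178 (SD, n = 3) at baseline and 1122 ± 172 with both (adjusted p = 0.743).

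Several genes of neuronal precursors were low after both treatments, where OBX alone raised 6 of 22 (10.7% of all genes) and Lip-C alone lowered 7 (0.814%). Of 22 tested, 6 fell and none rose (5.15% and 8.03% of all genes). The median was -0.15 beside 0.36 for OBX alone, -0.38 for Lip-C alone, -0.14 for their sum and -0.05 for the departure. The count of falls ran from 5 to 7, within 1.5 times throughout with 1 array left out. Neurod1, a proneural factor of precursors leaving the cell cycle, read 838, 889 and 925 at baseline, 1130.1, 1276 and 1175 with OBX, 395, 239 and 218 with Lip-C and 274, 342 and 254 with both. The Lip-C arrays, with or without OBX, lay below all Lip-O arrays. Its joint change was -1.57 ± 0.19 (adjusted p = 0.00442), the sum -1.20, the departure -0.36 (95% interval -0.94 to 0.22) and the effect of Lip-C within OBX mice -1.99 (adjusted p = 0.00362). Neurog1, which acts just before it, read 289, 242 and 223 at baseline, 437, 349 and 317 with OBX, 94.8, 102 and 73.0 with Lip-C and 124, 134 and 112 with both (-0.94 ± 0.15, adjusted p = 0.0071). Again no Lip-C array reached the lowest Lip-O array. St18, a zinc finger factor of differentiating neurons, is dim, so signals are given: 109, 111 and 84.8 at baseline, 183, 188 and 194 with OBX, 54.8, 40.7 and 30.4 with Lip-C and 26.1, 32.0 and 46.4 with both, a call with adjusted p = 0.00605. OBX raised St18 in Lip-O mice (adjusted p = 0.0107), while the OBX and sham arrays of Lip-C mice overlapped; the departure lay below the sum at an unadjusted p of 0.00203. Elavl4, an RNA-binding protein of new neurons, fell from 1718, 1772 and 1525 to 977, 1031 and 1106 (-0.68 ± 0.11, adjusted p = 0.00756), with a departure of -0.01 (95% interval -0.35 to 0.33). Neurod1, Neurog1, St18 and Elavl4 were called in all settings.

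Neuropeptides and granins, the cargo of dense-core vesicles, fell in 7 of 11 tested and rose in none (5.15% and 8.03% of all genes), with a median of -0.69 beside -0.38 for OBX alone, -0.20 for Lip-C alone, -0.95 for their sum and 0.18 for the departure. With 1 array left out the count ran from 4 to 7, moving by over 1.5 times without replicate 3 (4) of Lip-O sham or replicates 1 (4) or 2 (4) of Lip-C OBX. Grp, gastrin-releasing peptide, read 295, 281 and 216 at baseline, 348, 324 and 255 with OBX, 89.8, 75.5 and 68.2 with Lip-C and 109, 115 and 106 with both (-1.14 ± 0.14, adjusted p = 0.00442). Scg2, a granin, read 324, 397 and 321 at baseline, 445, 441 and 388 with OBX, 126, 110.1 and 118 with Lip-C and 174, 197 and 121 with both (-1.03 ± 0.15, adjusted p = 0.00626). These 2 genes followed the precursor pattern, low in every Lip-C array, with departures of 0.22 (95% interval -0.22 to 0.66) and 0.12 (95% interval -0.35 to 0.59). Scg5, a chaperone of prohormone convertase, instead followed OBX: 3396, 3171 and 3241 at baseline, 3298, 3289.6 and 3219 with Lip-C, 1919.9, 1770.2 and 2437 with OBX and 1647, 1876 and 2268 with both (-0.77 ± 0.13, adjusted p = 0.00897). Nmb, neuromedin B, fell from 415, 549 and 504 to 281, 327 and 289.9 (-0.68 ± 0.11, adjusted p = 0.00756), and all 4 were called in every setting.

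Cell cycle genes gave no call among 31 tested (8.03% and 5.15% of all genes rose and fell). Their median was 0.17 beside 0.38 for OBX alone, -0.35 for Lip-C alone, -0.18 for their sum and 0.30 for the departure. Mki67, a marker of dividing cells, read 482, 1202 and 769 at baseline, 981, 1719.6 and 1073 with OBX and 1168, 1611 and 974 with both (0.67 ± 0.32, adjusted p = 0.189); its baseline arrays overlapped those of every other group. Per array the list's median lay at -0.40, 0.28 and 0.05 at baseline and 0.30, 0.42 and -0.05 with both, which overlapped. Among immature neuron genes 2 of 21 fell (Tubb3, Lhx2) and none rose, beside 5.15% and 8.03% of all genes, with a median of -0.07. Gap43, the growth cone protein, read 3539.6, 4455 and 3503 at baseline and 4171, 5074 and 4812 with both (0.29 ± 0.19, adjusted p = 0.332). Neither fall was called without any one of 11 of the 12 arrays; only leaving out Lip-C OBX replicate 3 kept both. Horizontal basal cell genes rose in 2 of 12 (8.03% of all genes) with a median of 0.31. Itga6, a laminin-binding integrin, went from 1149.6, 1048 and 1137 to 2111, 1821 and 1539 (0.70 ± 0.13, adjusted p = 0.0101, in all settings), beside a sum of 0.73. The other, Lamb3, is a laminin chain, and the count ran from 1 to 6, moving by over 1.5 times without replicates 1 (1) or 3 (1) of Lip-O sham or replicates 1 (1), 2 (1) or 3 (6) of Lip-C OBX.

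Among macrophage genes Cd68 rose after both treatments, while Csf1r, Aif1 and Adgre1 did not pass the test. Of 28 tested of 33 listed, 5 rose and none fell (8.03% and 5.15% of all genes), with a median of 0.47 beside 0.53 for OBX alone, -0.22 for Lip-C alone, 0.33 for their sum and 0.15 for the departure. With 1 array left out the count ran from 0 to 8, moving by over 1.5 times without replicates 2 (3) or 3 (0) of Lip-O sham, replicate 3 (8) of Lip-O OBX or replicates 1 (0) or 2 (0) of Lip-C OBX. Per array the list's median was 0.32, -0.01 and -0.31 at baseline and 0.65, 0.54 and 0.24 with both, which overlapped. Cd68, a phagocyte endosome protein, read 566, 387 and 324 at baseline, 419, 326 and 307 with Lip-C, 1312, 989 and 656 with OBX and 1019, 1102 and 851 with both. The Lip-C OBX arrays lay above every sham array and within the range of OBX alone, a joint change of 1.22 ± 0.25 (adjusted p = 0.0164) with a departure of 0.30 (95% interval -0.50 to 1.09). The call for Cd68 was lost without replicate 3 of Lip-O sham or replicates 1 or 2 of Lip-C OBX (adjusted p = 0.0563 to 0.0601). Csf1r, the receptor that macrophages need to live, read 2231, 2589 and 2329 at baseline, 1475, 1209.8 and 1309.8 with Lip-C, 3413, 2754 and 2176 with OBX and 2381, 2657 and 1794 with both. It was lowest in the Lip-C sham arrays, and the joint groups overlapped (-0.08 ± 0.18, adjusted p = 0.795; departure 0.55 (95% interval 0.00 to 1.10)). With probe sets averaged per gene its departure was 0.24 (unadjusted p = 0.378). Aif1, an actin-binding macrophage protein, gave 121, 102 and 109 with Lip-C and 286, 307 and 203 with both, against 276, 219 and 176 at baseline (0.23 ± 0.20, adjusted p = 0.465). Adgre1, which encodes F4/80, read 249.7, 233 and 298 at baseline and 380.1, 328 and 260.2 with both (0.29 ± 0.19, adjusted p = 0.352).

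Lysosome and clearance genes rose in 8 of 23 tested and fell in none (8.03% and 5.15% of all genes), with a median of 0.33 beside 0.39 for OBX alone, 0.07 for Lip-C alone, 0.42 for their sum and -0.07 for the departure, with nearly equal medians for joint change and OBX alone. With 1 array left out the count ran from 5 to 9, moving by over 1.5 times without replicates 2 (5) or 3 (5) of Lip-O sham or replicates 1 (5) or 2 (5) of Lip-C OBX. Ctsd, a lysosomal protease, read 4467, 3946 and 3662 at baseline, 7565, 6387 and 6603 with OBX and 6745, 6840.3 and 6147 with both (0.71 ± 0.10, adjusted p = 0.00626). Abca1, which exports cholesterol from cells that ingested debris, read 1934, 1209 and 1348 at baseline, 2281, 1838 and 2238 with Lip-C, 4204, 2999.9 and 3173 with OBX and 3819.9, 3096 and 2908 with both (1.14 ± 0.19, adjusted p = 0.00811), beside a sum of 1.73 and a departure of -0.59 (95% interval -1.19 to 0.00). On averaging each gene's probe sets the departure of Abca1 was -0.33 (unadjusted p = 0.267). Stab1, a scavenger receptor, went from 162, 170.1 and 165 to 315, 359.9 and 257 (0.83 ± 0.13, adjusted p = 0.00758), and Apoe, a lipid carrier, from 6139.7, 5688 and 6567 to 9845, 10330.2 and 8255 (0.62 ± 0.11, adjusted p = 0.00912). The joint groups did not overlap for any of the 4, nor for 1090 of the 1095 risen genes and 35.4% of all genes. The 4 calls held in all settings.

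Chemokines and interferon-stimulated genes showed few joint calls. Ccl9, a macrophage chemokine, rose from 1797, 1013 and 1089 to 3673, 2662 and 2664 (1.23 ± 0.27, adjusted p = 0.0193) and Il18 fell, out of 25 chemokines and cytokines (8.03% and 5.15% of all genes rose and fell) with a median of -0.34, which was 0.14 without Lip-O sham replicate 1. The call for Ccl9 was lost without replicates 2 or 3 of Lip-O sham or replicates 1 or 2 of Lip-C OBX (adjusted p = 0.052 to 0.0788). The call for Il18 was lost without replicate 3 of Lip-O sham or replicates 1 or 2 of Lip-C OBX (adjusted p = 0.0556 to 0.0644). In the interferon list 2 of 24 fell and none rose (5.15% and 8.03% of all genes), with a median of -0.17 beside 0.28 for OBX alone, -0.17 for Lip-C alone, 0.15 for their sum and -0.27 for the departure. Without Lip-O sham replicate 1 the joint median was 0.24. Ifit2, an interferon-induced RNA-binding protein, read 529, 431 and 431 at baseline, 271, 224 and 334 with OBX and 239, 168 and 255 with both (-1.03 ± 0.19, adjusted p = 0.0116), without overlap and in all settings. The other was Ifit1, its neighbour in the genome and family. The call for Ifit1 was lost without replicates 1 or 2 of Lip-O sham or replicates 1, 2 or 3 of Lip-C OBX (adjusted p = 0.0564 to 0.0859). The baseline itself was uneven here: Mx1, an antiviral GTPase, read 173, 56.7 and 58.5 in its 3 arrays and 97.0, 94.4 and 60.8 with both treatments (-0.03 ± 0.33, adjusted p = 0.959), and the acute phase list's median ranged from -1.48 in replicate 3 to 2.02 in replicate 1. Class II and dendritic cell genes gave no call among 9 tested (8.03% and 5.15% of all genes rose and fell). Of 8 lymphocyte genes 1 rose, Nkg7 of cytotoxic cells (8.03% of all genes). The call for Nkg7 was lost without replicates 1, 2 or 3 of Lip-O sham, replicate 2 of Lip-C sham or replicates 1 or 2 of Lip-C OBX (adjusted p = 0.0511 to 0.137).

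Granule genes of myeloid progenitors were among the largest rises, and Mpo and Ms4a3 were high in both Lip-C groups. Of 13 tested of 16 neutrophil and progenitor genes, 4 rose and none fell (8.03% and 5.15% of all genes): Mpo, Elane, Prtn3 and Ms4a3, with a list median of 0.96 beside -0.12 for OBX alone, 1.31 for Lip-C alone, 1.34 for their sum and 0.41 for the departure. The median departure ran from 0.04 without Lip-O sham replicate 2 to 0.64 without Lip-C sham replicate 3. Mpo, myeloperoxidase, read 98.1, 599.8 and 396 at baseline, 979, 1255 and 2374 with Lip-C, 260.1, 405 and 202 with OBX and 2408, 1788 and 1143 with both (2.48 ± 0.57, adjusted p = 0.0218), beside a sum of 2.17. Every Lip-C array lay above every Lip-O array. Ms4a3, a marker of granulocyte and monocyte progenitors, read 106, 172 and 134 at baseline, 437, 437 and 566 with Lip-C, 88.3, 117 and 122 with OBX and 445, 309 and 226 with both (1.13 ± 0.23, adjusted p = 0.0153; departure -0.29 (95% interval -1.02 to 0.44)). The range within a group was wide, and replicate 1 of the baseline was the lowest of all 12 arrays for Mpo and Elane. The call for Mpo was lost without replicates 1 or 2 of Lip-C OBX (adjusted p = 0.0686 to 0.0871). The call for Ms4a3 was lost without replicates 1 or 2 of Lip-C OBX (adjusted p = 0.0515 to 0.0546). The call for Prtn3 was lost without replicate 3 of Lip-O sham or replicates 1 or 2 of Lip-C OBX (adjusted p = 0.0514 to 0.07). The call for Elane was lost without replicates 1 or 3 of Lip-O sham, replicate 2 of Lip-C sham, replicates 1, 2 or 3 of Lip-O OBX or replicates 1 or 2 of Lip-C OBX (adjusted p = 0.0506 to 0.154). S100a8, an abundant protein of mature neutrophils, did not pass the test, at 12979.9, 7346 and 6028 at baseline and 14739, 14977 and 9483 with both (adjusted p = 0.214).

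Among the 12 largest rises were also Gp9, Ppbp and Nfe2, grouped here after their values were seen. Gp9, a platelet receptor subunit, was near the floor of the array at baseline (6.20, 18.3 and 13.7) and read 50.6, 45.2 and 14.3 with Lip-C, 15.9, 40.9 and 26.9 with OBX and 105, 81.7 and 89.7 with both (adjusted p = 0.0071, in all settings); Lip-C OBX arrays lay above all others. Ppbp, a platelet chemokine, read 207, 888 and 1055 at baseline and 2985, 1763 and 2619 with both, and Nfe2, a factor of megakaryocytes and red cell precursors, 7.90, 107 and 57.2 and 240.3, 288 and 163. The call for Ppbp was lost without replicates 1, 2 or 3 of Lip-O sham, replicates 1, 2 or 3 of Lip-C sham, replicate 1 of Lip-O OBX or replicates 1, 2 or 3 of Lip-C OBX (adjusted p = 0.0543 to 0.147). The call for Nfe2 was lost without replicates 1 or 3 of Lip-O sham or replicates 1 or 2 of Lip-C OBX (adjusted p = 0.0553 to 0.0996). The 3 erythroid genes tested had a median joint change of 1.31 with no call (13.2% of all genes were called). Their per-array medians were -0.76, 0.85 and 0.07 at baseline and 1.07, 1.86 and 0.97 with both. The part of blood and marrow transcripts in the other results was not tested.

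Cartilage matrix genes were highest under the combined treatment: 10 of 15 rose when OBX was added to Lip-C (10.3% of all genes). OBX alone raised 2 (10.7% of all genes) and Lip-C alone none (1.28%). Of 15 tested, 6 rose and none fell (8.03% and 5.15% of all genes), with a median of 1.12 beside -0.14 for OBX alone, -0.33 for Lip-C alone, -0.41 for their sum and 1.44 for the departure. At an unadjusted p under 0.05, 11 of the 15 lay above the sum and none below (8.45% and 9.19% of all genes), and 6 to 13 did with 1 array left out. It was 6 when the array omitted was baseline replicate 2, OBX-alone replicate 3, or replicate 1 or 2 of both treatments, and 7 for baseline replicate 3 and OBX-alone replicate 1. Per array, the list's median was -0.63, 0.40 and 0.25 at baseline, -0.51, 0.32 and -0.12 with OBX, -0.08, -0.31 and -0.33 with Lip-C and 1.68, 1.45 and 0.48 with both, with Lip-C OBX replicate 3 the lowest of its group. Chad, a collagen-binding cartilage protein, read 384, 332 and 320.2 at baseline, 324, 359.8 and 388 with Lip-C, 319.6, 364 and 333 with OBX and 1137, 1003 and 567 with both. The joint change was 1.29 ± 0.21 (adjusted p = 0.00756), the sum 0.02 and the departure 1.27 (95% interval 0.62 to 1.92), or 1.32 when single changes were added on the linear scale. Acan, the proteoglycan aggrecan, read 87.0, 253 and 148 at baseline and 1228, 996 and 342 with both (2.21 ± 0.48, adjusted p = 0.0177; departure 2.18 (95% interval 0.69 to 3.67)). Col2a1, the main cartilage collagen, read 49.2, 233 and 270.3 and 1209, 1199 and 314 (2.24 ± 0.62, adjusted p = 0.041). Col9a3, dim at baseline, read 72.3, 77.3 and 32.5 there, 195, 148 and 138 with OBX and 331, 316 and 201 with both (adjusted p = 0.00456); it and Chad were called in all settings. The call for Acan was lost without replicates 1 or 3 of Lip-O sham or replicates 1 or 2 of Lip-C OBX (adjusted p = 0.0539 to 0.0724). The call for Col2a1 was lost without replicates 1, 2 or 3 of Lip-O sham, replicates 1, 2 or 3 of Lip-C sham, replicate 1 of Lip-O OBX or replicates 1 or 2 of Lip-C OBX (adjusted p = 0.0504 to 0.143). The count of rises with 1 array left out ran from 2 to 11, moving by over 1.5 times without replicates 1 (3) or 3 (2) of Lip-O sham or replicates 1 (2), 2 (2) or 3 (11) of Lip-C OBX.

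The 7 tested genes of osteoblasts and osteocytes, which make and maintain bone, had a median joint change of -0.23 beside -0.48 for OBX alone, -1.75 for Lip-C alone, -2.32 for their sum and 1.47 for the departure. The joint median ran from -0.82 without Lip-O sham replicate 1 to 0.07 without Lip-O sham replicate 2. All 7 lay above the sum at an unadjusted p under 0.05 (8.45% of all genes), and 4 to 7 with 1 array left out, the lowest when baseline replicate 2, OBX-alone replicate 3 or replicate 2 of both treatments was omitted. Ibsp, bone sialoprotein, read 4659.5, 4512 and 3732 at baseline, 1186, 1144 and 1026 with Lip-C, 3856, 3468 and 2544 with OBX and 1726, 2865 and 1635 with both. All 3 Lip-C OBX arrays lay above the Lip-C sham arrays and below baseline (-1.09 ± 0.21, adjusted p = 0.0135; departure 1.24 (95% interval 0.57 to 1.90)). The call for Ibsp was lost without replicate 1 of Lip-C OBX (adjusted p = 0.0564). Dmp1, an osteocyte matrix protein, read 1061, 2879 and 3065 at baseline, 117, 210.2 and 92.8 with Lip-C, 2818, 2369.6 and 507 with OBX and 828, 2169 and 638 with both, with a departure of 3.32 (95% interval 1.19 to 5.46). Its single changes added on the linear scale gave a negative signal, so this departure is defined on the log2 scale only. It did not pass the joint test (adjusted p = 0.36). Its arrays within the baseline and OBX groups differed several-fold. Among 11 osteoclast genes 3 fell and none rose (5.15% and 8.03% of all genes), with a median of -0.52 beside -0.34 for OBX alone, -0.52 for Lip-C alone, -0.87 for their sum and 0.52 for the departure. Their falls numbered from 0 to 4, moving by over 1.5 times without replicates 1 (1), 2 (1) or 3 (0) of Lip-O sham or replicate 1 (0) of Lip-C OBX. Ctsk, the collagen-degrading protease of osteoclasts, read 4212, 5089 and 4516 at baseline, 752, 1057 and 847 with Lip-C, 4763, 4700.0 and 2119 with OBX and 2032, 3201 and 1138 with both (-1.23 ± 0.37, adjusted p = 0.0538; departure 1.48 (95% interval 0.32 to 2.64)). Ctsk was called in 7 settings, among them a trended prior variance (adjusted p = 0.0304). Acp5, their acid phosphatase, read 2442, 2969.9 and 2337 at baseline and 477, 1570.2 and 470.4 with both (-1.84 ± 0.54, adjusted p = 0.0487). The call for Acp5 was lost without replicates 1, 2 or 3 of Lip-O sham, replicates 1, 2 or 3 of Lip-C sham, replicate 2 of Lip-O OBX or replicates 1 or 3 of Lip-C OBX (adjusted p = 0.0564 to 0.164).

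Fibroblast and matrix genes had a median below baseline after Lip-C alone and above it after both treatments, and 17 of 23 rose when OBX was added to Lip-C (10.3% of all genes). Of 23 tested, 3 rose and none fell (8.03% and 5.15% of all genes), with a median of 0.24 beside 0.01 for OBX alone, -0.62 for Lip-C alone, -0.57 for their sum and 0.99 for the departure. Of the 23, 15 lay above the sum and none below at an unadjusted p under 0.05 (8.45% and 9.19% of all genes), and 12 to 19 with 1 array left out. The joint median ran from 0.06 without replicate 1 of Lip-O sham to 0.42 without replicate 3 of Lip-C OBX. Col1a1, the chief collagen of bone and connective tissue, read 4190.1, 12874 and 13407 at baseline, 1308, 3379 and 2182 with Lip-C, 7649, 10923 and 2942 with OBX and 10888, 12592 and 4909 with both. Of the Lip-C sham arrays 2 were below all 9 others, and the joint groups overlapped (-0.03 ± 0.60, adjusted p = 0.976; departure 2.55 (95% interval 0.67 to 4.44)). Sfrp4, a secreted Wnt inhibitor, read 1050.4, 1138 and 1160.3 at baseline, 411, 441 and 503 with Lip-C, 1188, 1105 and 814 with OBX and 1368, 1373 and 925 with both, a departure of 1.51 (95% interval 0.97 to 2.05) with adjusted p = 0.0762. Has2, a hyaluronan synthase, read 266, 205 and 174 at baseline, 72.4, 59.4 and 53.9 with Lip-C, 123, 178 and 129 with OBX and 182, 161 and 134 with both; it is dim in the Lip-C sham arrays, and its departure lay above the sum at adjusted p = 0.0747. In no array of both treatments did either gene fall to the level of Lip-C alone. For Col1a1 and Has2 the single changes added on the linear scale gave a negative signal, so their departures are defined on the log2 scale only. The rises were Fn1, Pdgfrb and Fbln1, and their count ran from 0 to 7, moving by over 1.5 times without replicates 1 (0), 2 (0) or 3 (0) of Lip-O sham, replicate 3 (1) of Lip-C sham or replicates 1 (0), 2 (0) or 3 (7) of Lip-C OBX. Bone, cartilage and stroma lists differed between arrays of the same group, as the plot of lists by array shows, and the part that the amount of these tissues on an array plays in the results was not tested.

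**Figure D4:**
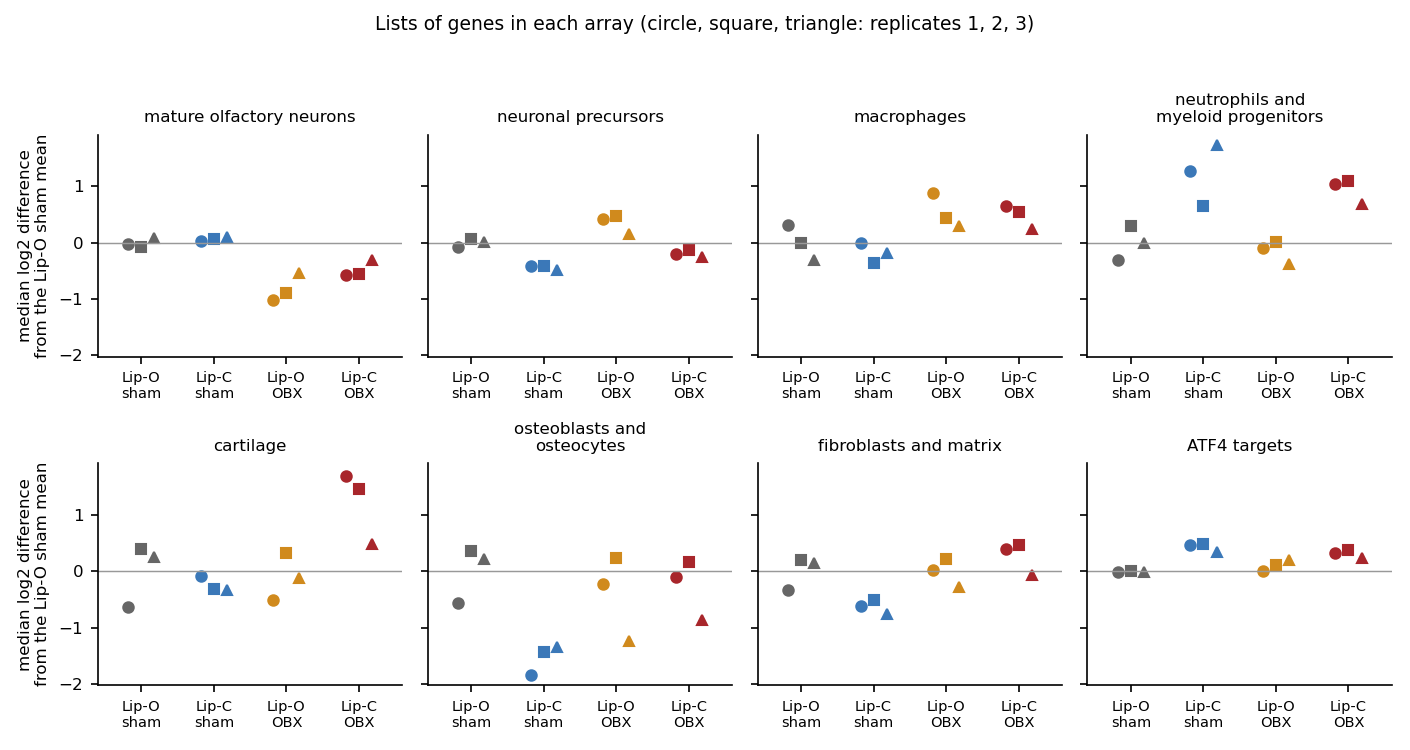
Each point is 1 array: the median over the tested genes of a list of the log2 difference from the gene's Lip-O sham mean (y axis), with circles, squares and triangles for replicates 1, 2 and 3 of each group. Cartilage lies highest in the 3 Lip-C OBX arrays (0.48 to 1.68), osteoblast and osteocyte genes lie lowest in the Lip-C sham arrays (-1.84 to -1.35) and in Lip-O OBX replicate 3 (-1.23), and mature neuron genes lie below baseline in both OBX groups.

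Among targets of ATF4, 11 of 28 tested rose after both treatments, none fell and 17 did not pass the test (8.03% and 5.15% of all genes rose and fell), with a median of 0.25 beside 0.11 for OBX alone, 0.42 for Lip-C alone, 0.42 for their sum and -0.15 for the departure. The number of rises ran from 8 to 12, within 1.5 times throughout with 1 array left out. Chac1, which degrades glutathione and whose promoter is printed above, read 299, 204 and 214 at baseline, 651, 777 and 716 with Lip-C, 254, 308 and 284 with OBX and 617, 791 and 527 with both (1.37 ± 0.17, adjusted p = 0.00442; departure -0.40 (95% interval -0.92 to 0.12)). Fgf21, a stress-induced hormone with the same element, read 46.7, 103 and 69.4 at baseline, 239.6, 295 and 179 with Lip-C, 50.8, 71.7 and 47.1 with OBX and 199.7, 291 and 234 with both (1.56 ± 0.25, adjusted p = 0.0075). For both genes all 6 Lip-C arrays lay above all 6 Lip-O arrays. Asns, asparagine synthetase, read 1903, 2029.6 and 2049.9 at baseline and 4057, 3841 and 2996 with both (0.85 ± 0.12, adjusted p = 0.00605; sum 0.82). Phgdh, the entry enzyme of serine synthesis, read 690.0, 847 and 878 at baseline, 1199.8, 1139.7 and 1031 with OBX and 1746, 1667 and 1322 with both (0.95 ± 0.13, adjusted p = 0.00456), with a departure of -0.46 (95% interval -0.85 to -0.07). Slc7a1, a cationic amino acid transporter, went from 1638, 1519 and 1416 to 2539.9, 2477 and 2148 (0.64 ± 0.08, adjusted p = 0.00456; departure -0.29 (95% interval -0.56 to -0.03)). Slc7a3, a transporter of the same family and outside the list, was among the largest rises, from 106, 128 and 116 to 417, 587 and 559 (2.01 ± 0.33, adjusted p = 0.00771). These 6 genes were called in all settings. At an unadjusted p under 0.05, 5 of the 28 lay below the sum and none above (9.19% and 8.45% of all genes). The 5 became 3 when replicate 2 or 3 of Lip-C sham, replicate 1 of Lip-O OBX or replicate 3 of Lip-C OBX was omitted, and 7 at most. After averaging over probe sets the departure of Phgdh was -0.22 (unadjusted p = 0.285). Slc7a5, the large neutral amino acid transporter, read 1485, 1416 and 1578 at baseline, 2186, 2439 and 2159 with Lip-C and 1635, 1865 and 1757 with both, a departure of -0.62 (95% interval -0.87 to -0.36). Aminoacyl-tRNA synthetases rose in 2 of 18, Iars and Eprs, near the share of all genes (8.03%), with a median of 0.11. Leaving out any one of the 6 compared arrays except Lip-C OBX replicate 3 ended both calls. So did averaging over probe sets (Iars 0.17, adjusted p = 0.106, and Eprs 0.15, adjusted p = 0.342) and setting array medians equal.

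Genes that glucocorticoids induce had higher medians in each treatment alone than in both together. Per array the list's median was 0.61, 0.14 and 0.64 with OBX alone, 0.50, 0.23 and 0.41 with Lip-C alone and 0.14, 0.10 and 0.17 with both. Replicate 2 of OBX alone thus lay within the range of both treatments. OBX alone raised 7 of the 14 (10.7% of all genes) and Lip-C alone 1 (1.28%). Of 14 tested, 2 rose and none fell (8.03% and 5.15% of all genes), with a median of 0.10 beside 0.47 for OBX alone, 0.40 for Lip-C alone, 0.81 for their sum and -0.65 for the departure. Of the 14, 8 lay below the sum at an unadjusted p under 0.05 and none above (9.19% and 8.45% of all genes), and 5 to 10 with 1 array left out, the lowest when baseline replicate 2, Lip-C-alone replicate 3 or OBX-alone replicate 3 was omitted. Fkbp5, a chaperone that restrains the glucocorticoid receptor, read 634, 563 and 607 at baseline, 1057, 1005 and 1141 with Lip-C, 1159.5, 722 and 1184 with OBX and 593, 522 and 631 with both. All single-treatment arrays stood above all baseline and all Lip-C OBX arrays, which overlapped. The joint change was -0.05 ± 0.17 (adjusted p = 0.869), the sum 1.53 and the departure -1.58 (95% interval -2.09 to -1.06), adjusted p = 0.0747, or -1.33 against a sum on the linear scale. Pdk4, a kinase that restrains glucose oxidation, read 162, 81.8 and 104 at baseline and 223, 259 and 294 with both (1.10 ± 0.27, adjusted p = 0.0289; sum 2.12). The call for Pdk4 was lost without replicates 2 or 3 of Lip-O sham or replicates 1, 2 or 3 of Lip-C OBX (adjusted p = 0.0584 to 0.0836). Klf9, a factor induced by the same hormones, was the other rise. The call for Klf9 was lost without replicates 1, 2 or 3 of Lip-O sham, replicates 1, 2 or 3 of Lip-C sham or replicates 1 or 3 of Lip-C OBX (adjusted p = 0.0506 to 0.137).

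**Figure D5:**
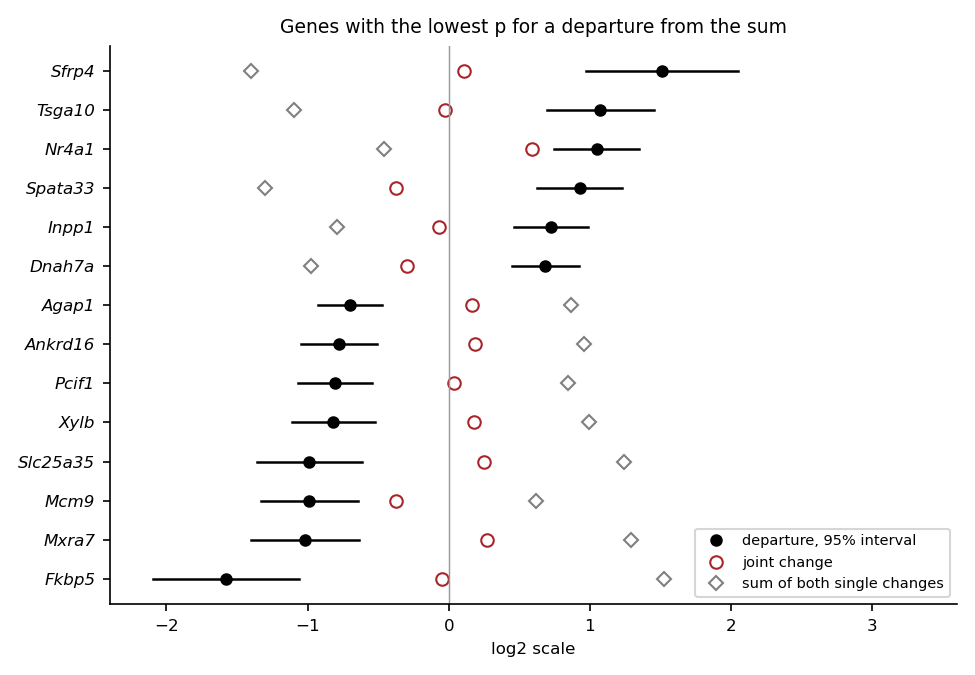
Departure from the sum with its 95% interval (black), joint change (open red circles) and sum of single changes (open diamonds) on the log2 scale for the genes with the lowest unadjusted p in each direction, dim genes left out. Sfrp4, Nr4a1 and Dnah7a lie above their sum and Fkbp5 and Mcm9 below it. For 13 of the 14 genes the joint change is nearer to 0 than the sum, Nr4a1 being the other. The genes were chosen by the departure, from which the sum is subtracted, so this count follows in part from the choice and is a description.

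The other genes with the lowest p for a departure had no common list. Mcm9, a helicase of DNA repair, read 641, 525 and 599 at baseline, 779, 965 and 901 with Lip-C, 621, 534 and 669 with OBX and 437, 449 and 463 with both, a departure of -0.99 (95% interval -1.33 to -0.64). Below the sum stood also Agap1, Ankrd16, Mxra7, Pcif1, Slc25a35 and Xylb, with departures from -1.02 to -0.70. Above it stood Inpp1, Spata33 and Tsga10 (0.72, 0.93 and 1.07), and H3c11, a histone that read 3.20, 6.60 and 5.90 with Lip-C against 48.1, 57.5 and 75.4 at baseline and 84.9, 83.9 and 78.5 with both. Their adjusted p ran from 0.0747 to 0.0776, so none was called.

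Bowman gland genes rose in 4 of 12 tested and fell in none (8.03% and 5.15% of all genes), with a median of 0.28 beside 0.22 for OBX alone, -0.08 for Lip-C alone, 0.23 for their sum and 0.13 for the departure. The last was -0.04 to 0.07 under other scalings. Of the 12, 1 lay above the sum and 2 below it at an unadjusted p under 0.05 (8.45% and 9.19% of all genes). Dmbt1, another gene of the list, lay far above its sum, with departures from 3.18 to 4.95 over the alternative settings. Its single changes added on the linear scale gave a negative signal, so no departure is defined on that scale. Its unadjusted p was under 0.05 in 22 of 22 fits, and no fit called it (lowest adjusted p 0.0864). Aqp5, the water channel of these glands, read 3725, 3329 and 3364 at baseline, 4181, 3972 and 4292 with Lip-C, 7125, 5952 and 6433 with OBX and 7263, 5916 and 6354 with both (0.90 ± 0.10, adjusted p = 0.00403; sum 1.16). Both OBX groups lay above both sham groups and overlapped each other. Muc5b, a mucin, read 7282, 3033 and 3125 at baseline and 11373, 9787 and 8715 with both (1.27 ± 0.29, adjusted p = 0.0205; departure -1.08 (95% interval -1.97 to -0.18)). The call for Muc5b was lost without replicates 2 or 3 of Lip-O sham or replicates 1 or 2 of Lip-C OBX (adjusted p = 0.0609 to 0.0803). With 1 array left out the gland count ran from 1 to 4, moving by over 1.5 times without replicates 1 (2), 2 (2) or 3 (1) of Lip-O sham or replicates 1 (1) or 2 (1) of Lip-C OBX. Sustentacular cell genes rose in 5 of 13 and fell in 1 (8.03% and 5.15% of all genes), with a median of 0.10. Their rises numbered from 0 to 4, moving by over 1.5 times without replicates 1 (3), 2 (0) or 3 (1) of Lip-O sham, replicate 3 (3) of Lip-C sham or replicates 1 (0), 2 (1) or 3 (3) of Lip-C OBX. The fall was Aldh1a7, an aldehyde dehydrogenase, from 4833, 4647 and 4907 to 3313, 3158 and 2672 (-0.66 ± 0.08, adjusted p = 0.00456, in all settings), with 2933, 3161 and 3119 after Lip-C alone. All 6 Lip-C arrays lay below all 6 Lip-O arrays for this gene.

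Endothelial genes rose in 5 of 13 tested and fell in none (8.03% and 5.15% of all genes), with a median of 0.53 beside 0.32 for OBX alone, 0.12 for Lip-C alone, 0.44 for their sum and 0.15 for the departure. With 1 array left out this count ran from 4 to 8, moving by over 1.5 times without replicate 3 (8) of Lip-C OBX. Cldn5, a tight junction protein of vessels, read 641, 652 and 697 at baseline, 946, 847 and 854 with Lip-C, 1239, 1114 and 1254 with OBX and 1436, 1273 and 1121 with both. Both single treatments lay above all baseline arrays, and the joint change was 0.92 ± 0.10 (adjusted p = 0.00403) against a sum of 1.24. Esam, an adhesion molecule, went from 188, 154 and 195 to 408, 362 and 325 (0.97 ± 0.14, adjusted p = 0.00605), and Vwf, von Willebrand factor, from 215, 257 and 200.0 to 577, 398 and 414 (0.98 ± 0.18, adjusted p = 0.0104). Cdh5, the endothelial cadherin, went from 74.0, 95.5 and 89.4 to 149, 170.1 and 135 (0.71 ± 0.11, adjusted p = 0.00756). Pecam1, the list's first marker, read 152 ± 41.7 (SD, n = 3) at baseline and 225 ± 39.9 with both (adjusted p = 0.0923). The calls for Cldn5, Esam, Vwf and Cdh5 held in all settings.

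Genes of ensheathing and Schwann cells, the glia of the olfactory nerve, rose in 4 of 12 tested and fell in none (8.03% and 5.15% of all genes), with a median of 0.47 beside 0.51 for OBX alone, 0.14 for Lip-C alone, 0.65 for their sum and -0.18 for the departure. Leaving out 1 array gave counts from 2 to 5, moving by over 1.5 times without replicate 1 (2) of Lip-C OBX. Sox10, their lineage factor, read 233, 298 and 356 at baseline, 538, 373 and 389 with Lip-C, 687, 580.4 and 749 with OBX and 701, 677 and 509 with both (1.05 ± 0.19, adjusted p = 0.01; departure -0.63 (95% interval -1.22 to -0.04)). Erbb3, a neuregulin receptor, went from 1584, 1668 and 1674 to 2572, 2574 and 2666 (0.66 ± 0.08, adjusted p = 0.00456; departure -0.27 (95% interval -0.54 to -0.01)). The joint calls of both held in all settings, and OBX alone overlapped with both treatments. When probe sets were averaged per gene, Sox10 had a joint change of 0.60 and a departure of -0.08 (unadjusted p = 0.743). Its departure had p under 0.05 in 13 of 22 fits, and that of Erbb3 in 9. Cdh19, a glial cadherin, read 464, 357 and 348 at baseline, 851, 659 and 956 with OBX and 612, 590.3 and 568 with both; its joint change of 0.59 ± 0.19 did not pass the test (adjusted p = 0.0618; 0.041 with a trended prior variance), and its departure was -1.14 (95% interval -1.73 to -0.56).

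Growth factor genes rose in 5 of 18 tested and fell in none (8.03% and 5.15% of all genes), with a median of 0.47 beside 0.34 for OBX alone, 0.18 for Lip-C alone, 0.49 for their sum and -0.15 for the departure. Without 1 array the count ran from 3 to 7, moving by over 1.5 times without replicate 1 (3) of Lip-O sham or replicates 1 (3) or 2 (3) of Lip-C OBX. Vegfa, the vessel growth factor, read 207, 301 and 249 at baseline, 547, 337 and 452 with Lip-C, 372, 372 and 323 with OBX and 539.7, 469 and 493 with both (0.96 ± 0.17, adjusted p = 0.00974). Tgfb2, a TGF-beta ligand, went from 462, 538 and 489 to 719, 825 and 900.3 (0.69 ± 0.13, adjusted p = 0.013), beside a sum of 1.28 and a departure of -0.58 ± 0.19 (SE). Both kept their call in all settings. Cell death genes rose in 3 of 20 and fell in none (8.03% and 5.15% of all genes). Their median was 0.11, and the count ran from 1 to 4, moving by over 1.5 times without replicate 3 (1) of Lip-O sham or replicates 1 (1) or 2 (1) of Lip-C OBX.

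Alb, serum albumin, was high in the Lip-O OBX arrays alone, at 527, 1184 and 151, against 47.5, 52.2 and 16.9 at baseline, 33.3, 10.7 and 6.00 with Lip-C and 5.60, 41.3 and 10.2 with both; its joint groups overlapped (adjusted p = 0.501). Ahsg, another plasma protein gene, read 11.8, 18.5 and 13.9 at baseline, 168, 118 and 119 with OBX and 95.2, 58.6 and 79.5 with both (adjusted p = 0.0218). It was the 1 call among 4 liver transcripts tested of 11 (8.03% of all genes rose). The call for Ahsg was lost without replicates 1 or 3 of Lip-O sham or replicates 1 or 2 of Lip-C OBX (adjusted p = 0.051 to 0.0856). Of these 4, 3 lay below the sum at an unadjusted p under 0.05 (9.19% of all genes). The signals of Alb outside the Lip-O OBX arrays lay below the 40th percentile of every array (65.3 to 79.3). Cholesterol synthesis genes fell in 2 of 16 and rose in none (5.15% and 8.03% of all genes), with a median of -0.29. The count was 5 without replicate 3 of Lip-O OBX, 2 without replicate 1 of that group and 1 without any one of the other 10 arrays. Among the falls was Mvk, mevalonate kinase, which went from 683, 606 and 531 to 322, 422 and 389 (-0.66 ± 0.12, adjusted p = 0.0109, in all settings). Mt3, a zinc-binding metallothionein, read 311, 355 and 244 at baseline, 97.8, 179 and 221 with Lip-C, 56.6, 68.4 and 60.9 with OBX and 122, 111 and 82.8 with both (-1.40 ± 0.24, adjusted p = 0.00932), so that the joint level lay above all arrays of OBX alone. Among 14 antioxidant genes 1 fell, Gstm1 (5.15% of all genes), and that call was lost without any one of the 6 compared arrays or Lip-C sham replicate 3. The list's median was 0.07, and -0.01 to 0.08 under the other scalings. No gene was called among 16 of the respiratory chain (median -0.09), 6 of the acute phase or 4 of skeletal muscle (13.2% of all genes were called).

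Of the genes with remaining large changes, Sult6b1, Tmprss4 and Cytl1 stood outside the lists, while Oscar and Olfr288 belong to the osteoclast and odorant receptor lists. Sult6b1, a sulfotransferase, had the largest fall, from 348, 493 and 427 at baseline to 106, 87.5 and 82.2 with both (-2.02 ± 0.46, adjusted p = 0.0215), with 85.6, 111 and 206 after Lip-C. The call for Sult6b1 was lost without replicates 2 or 3 of Lip-O sham or replicates 1 or 2 of Lip-C OBX (adjusted p = 0.0602 to 0.068). Tmprss4, a membrane serine protease, read 116, 94.0 and 106 at baseline, 41.5, 38.0 and 19.0 with Lip-C, 107, 103 and 88.5 with OBX and 46.4, 6.60 and 36.1 with both (adjusted p = 0.0165), with every Lip-C array below every Lip-O array. The call for Tmprss4 was lost without replicate 3 of Lip-O sham (adjusted p = 0.0507). Cytl1, a secreted protein found in cartilage, rose from 547, 787 and 709 to 4802, 3539.9 and 2046 (2.25 ± 0.52, adjusted p = 0.0218), with 2295, 1183 and 1209.5 after Lip-C. The call for Cytl1 was lost without replicates 1 or 3 of Lip-O sham or replicates 1 or 2 of Lip-C OBX (adjusted p = 0.0577 to 0.0873). The call for Oscar was lost without replicates 1, 2 or 3 of Lip-O sham or replicate 1 of Lip-C OBX (adjusted p = 0.0587 to 0.065). The call for Olfr288 was lost without replicates 1 or 3 of Lip-O sham or replicates 1, 2 or 3 of Lip-C OBX (adjusted p = 0.0707 to 0.108). Col9a3, Nfe2 and Gp9 among the rises, and Olfr288, Tmprss4 and Oscar among the falls, were dim in 1 of the compared groups, so no log2 change is given. Signals stand in its place, except for Olfr288 and Oscar.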

How the data were processed

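Olfactory epithelium of 12 samples in 4 groups of 3 was measured on 1-colour Affymetrix arrays. The authors deposited 1 linear intensity per probe set and array in the series matrix, with a trimmed mean (2%) of 500 on each array. No label or header names the summarisation algorithm. All 45101 probe sets were read, of which 64 were controls. Platform annotation gave 1 gene for 34945 probe sets, several for 932 and none for 9160, and 34741 were matched to RefSeq gene names (GRCm38.p6). No rescaling was applied; log2(signal + 16) was taken, 28986 probe sets that exceeded the 40th percentile of 3 or more arrays were kept, and 1 probe set per gene, the brightest over all arrays, left 13628 genes. All 12 arrays were fitted together with limma 3.58.1 in R 4.3.3 (8 residual and 2.56 prior degrees of freedom), with Benjamini-Hochberg adjustment over all genes and a threshold of 0.05. The script was tested on simulated data. An exact permutation test of 3 against 3 arrays cannot go below p = 0.1, so none is given. A group mean below the 40th percentile has no fold. With 3 arrays a group, precision is limited.

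The groups compared and the gene lists were chosen with earlier results of these data known. Named genes are the 12 largest rises and 12 largest falls among calls without overlap, the 8 lowest p-values for the departure in each direction, in each list up to 4 members with the lowest adjusted p, the one with the lowest departure p and the first member, and the genes that an earlier account of these data named. Genes named without values were singled out after values were seen. Alternatives were other pseudocounts, filters, scalings, probe set rules, variance priors, a replicate block, the 6 compared arrays alone, and each array left out.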

Additional observations from a re-analysis of the deposited data

How the results depend on the processing

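The 1797 joint calls became 1059 with no filter on low signals (636 higher, 423 lower) and 887 with only the 6 compared arrays fitted (519 higher, 368 lower); with array medians set equal 583 were higher. Leaving out 1 array gave 451 to 2135 calls, 279 to 1269 higher and 172 to 866 lower. Called departures, 0 in the full fit, were 1 with no filter, 85 above the 60th percentile, 66 with a trended prior variance, and 0 to 155 with 1 array left out. With the replicate number as a block there were 2095 joint calls (1269 higher, 826 lower) and 0 departures. Arrays with the same number correlated at r = -0.028 to 0.327 in their deviations from group means. Their median was 0.1285, with 10 of 18 pairs over 0.1, and other pairs had a median of -0.089. Of 12 arrays, 9 correlated best with their own number. The main fit leaves the number out, and whether it marks a pairing or a shared batch was not tested. With the block, Cdh19, Ctsk, Klf1, Omp and Snap25 gained a joint call, and Ctsg, Fdft1, Lhx2 and Nkg7 lost theirs. Of 116 named genes with a joint call, 48 kept it in every setting and 64 lost it in at least 1 fit without an array. No named gene with a joint call changed direction in the settings run, but the balance of higher and lower calls turned with array medians set equal, and small departures changed sign, among them those of Asns, Elavl4, Grp, Itga6, Mpo, Necab1, Scg2, Scg5, Stab1, Sult6b1, Sv2b and Vegfa. Median departures changed sign in at least 1 setting for odorant receptor, presynaptic, immature neuron, precursor, sustentacular, gland, macrophage, lymphocyte, chemokine, tRNA synthetase, acute phase, cholesterol, respiratory, muscle and erythroid genes. Median joint changes did so for class II, lymphocyte, chemokine, interferon, osteoblast, liver, acute phase, antioxidant and muscle genes. Precision is limited by 3 arrays a group and by dim signals, for which log2 changes are understated.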
